A study of Homo sapiens with 16 samples.

Results

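The H3K27ac domains of 2 Ewing sarcoma cell lines, TC-32 and TC-71, were set against each other interval by interval. The members are all distinct intervals on chromosomes 1 to 22 and X in the authors' broad peak list of each line, 36355 in TC-32 and 26334 in TC-71, or 62689 of the 114213 distinct intervals in the 6 lists of the series. A domain was called shared when it overlapped a domain of the other line by at least 1 bp, and line-only otherwise. Ewing sarcoma is a tumour of bone and soft tissue, and both lines were grown in serum-supplemented RPMI-1640. TC-32 is labelled as a line from diagnosis and TC-71 as one from after chemotherapy. Each group is a single cell line, so line and phase of therapy cannot be told apart. H3K27ac and input chromatin were sequenced in 2 samples each per line, but the deposited list of a line is 1 for both samples. Replicate spread could therefore not be measured and the lines could not be compared by a test. Exact (Clopper-Pearson) 95% intervals are given and cover counting error only. The read depth is unknown.

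H3K27ac is acetylation of lysine 27 on histone H3, placed by the acetyltransferases p300 and CBP and found at active promoters and enhancers. Broad peak calling joins neighbouring enriched stretches, so 1 domain can be a promoter or a run of several enhancer elements. In Ewing sarcoma the EWSR1-FLI1 fusion protein binds repeats of its GGAA motif and turns them into acetylated enhancers. Cell lines of the same tumour can share a core of active elements and differ in others. Coordinates are hg19, counted from 1. No hg19 gene annotation or genome was used here, so neither the identity of the lines nor genes at domains were checked, and genes named with a chromosome band are textbook background. Whether a domain overlaps such a gene was not tested.

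The TC-32 list was 1.38 times as long as the TC-71 list and covered 65.4 Mb against 42.7 Mb, 1.53 times as much. Its domains were also slightly wider, with a median of 1269 bp in TC-32 and 1146 bp in TC-71 and a 99th percentile of 10.3 kb against 8.46 kb. The widest domain measured 71923 bp in TC-32 and 48417 bp in TC-71. The narrowest measured 193 bp and 171 bp in the same lines. The smallest gap between neighbours was 773 bp in the TC-32 list and 685 bp in the TC-71 list.

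The first comparison asked how sharing depends on the width of a domain. Overall 17107 TC-32 domains were shared (47.1%) and 17721 TC-71 domains (67.3%), and in both lines the share was higher in each wider class. Of TC-32 domains, 19.2% (interval 18.3 to 20.2%) were shared under 500 bp, 32.8% from 500 bp to 1 kb, 56.0% from 1 to 2 kb, 64.3% from 2 to 5 kb, 71.7% from 5 to 10 kb and 86.2% (82.4 to 89.4%) at 10 kb and over. The TC-71 shares in the same classes were 39.6% (38.4 to 40.9%), 54.4%, 79.4%, 87.9%, 88.4% and 95.2% (90.8 to 97.9%). The TC-71 share was the higher in each class, and the TC-32 list it was set against is the longer. Overlaps of 50 bp or less made 51 TC-32 and 60 TC-71 domains shared, and 36 TC-32-only and 33 TC-71-only domains ended within 50 bp of a domain of the other line. With at least 50% of a domain covered, 37.7% of TC-32 and 60.2% of TC-71 domains were shared.

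A wide domain meets a fixed target more easily than a narrow one, so a measure that does not grow with width was set beside the overlap. The midpoint of a TC-32 domain lay inside a TC-71 domain in 17.6% of cases under 500 bp, 50.7% from 1 to 2 kb, 54.8% from 2 to 5 kb and 54.4% (49.4 to 59.4%) at 10 kb and over. For TC-71 midpoints these shares were 37.1%, 74.9%, 81.1% and 79.2% (72.2 to 85.0%). By this measure sharing was higher in each class up to 2 to 5 kb and no higher above it, with 48.5% in TC-32 and 73.5% in TC-71 from 5 to 10 kb. The share of bases covered by the other line was 45.6% of TC-32 bases in domains of 1 to 2 kb, 45.9% from 2 to 5 kb, 41.2% from 5 to 10 kb and 47.7% at 10 kb and over. In TC-71 it was 68.7%, 69.0%, 65.9% and 72.3% in the same classes. With midpoints and with bases the class of 5 to 10 kb stood below that of 2 to 5 kb in both lines, which was not seen with the 1 bp overlap.

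**Figure D1:**
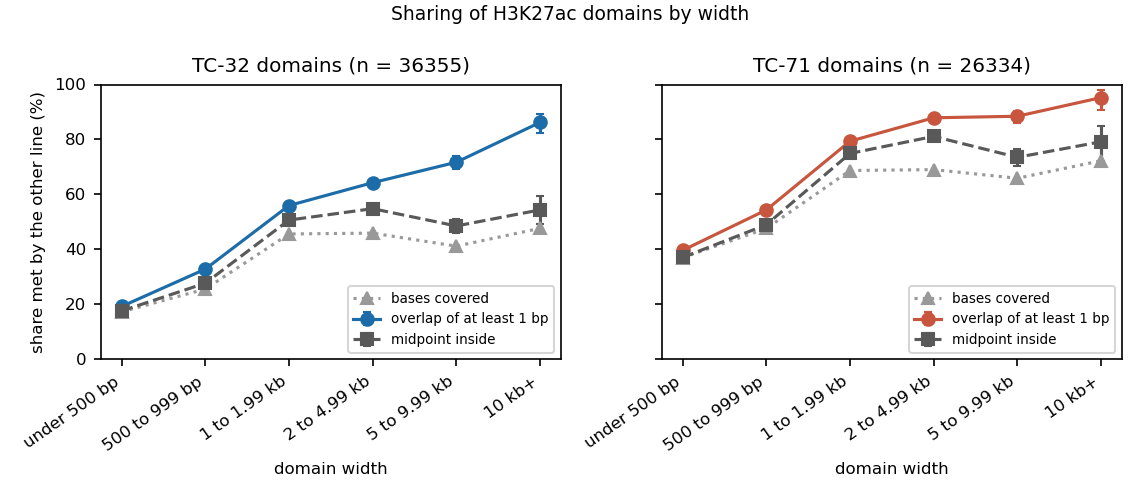
Share of H3K27ac domains met by the other line (y axis, percent) by domain width (x axis), for TC-32 on the left and TC-71 on the right. Circles give overlap of at least 1 bp, squares the midpoint inside a domain of the other line (bars are exact 95% intervals) and triangles the share of bases covered; squares and triangles dip from 5 to 10 kb, while the circles reach 86.2% in TC-32 and 95.2% in TC-71.

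Width and rank go together, so the classes were also read within quartiles of −log10 q, the authors' significance of a domain. In the highest quartile, −log10 q of 15.1 and over in TC-32 and 13.9 and over in TC-71, wide and narrow domains were shared at close rates by the 1 bp overlap. There 90.1% (89.2 to 90.9%) of TC-32 domains of 2 kb and over and 91.2% (88.9 to 93.2%) of those under 1 kb were shared. In TC-71 97.9% (97.4 to 98.4%) of the wide and 96.3% (94.3 to 97.7%) of the narrow domains were. Midpoints in that quartile were met for 80.9% (79.8 to 82.0%) of wide and 87.3% (84.6 to 89.7%) of narrow TC-32 domains. For TC-71 midpoints the shares were 94.5% and 94.4%. Within the highest TC-32 quartile the 1 bp share was 96.0% from 1 to 2 kb, 82.3% from 5 to 10 kb and 90.2% at 10 kb and over. In the second TC-32 quartile the shares were 50.1% (48.5 to 51.7%) for wide and 49.6% (47.4 to 51.7%) for narrow domains, while midpoints were met less often for the wide domains, at 34.7% (33.2 to 36.3%) of those of 2 kb and over and 45.2% (43.1 to 47.4%) of those under 1 kb. In the second TC-71 quartile 85.0% (83.4 to 86.5%) of the wide and 78.6% (76.7 to 80.5%) of the narrow domains were shared. Midpoints of that TC-71 quartile were met for 73.0% (71.1 to 74.8%) of the wide and 75.2% (73.2 to 77.2%) of the narrow domains. In the lowest quartile 32.8% (27.3 to 38.8%) of the wide and 15.7% (14.9 to 16.6%) of the narrow TC-32 domains were shared, and 46.0% (37.0 to 55.1%) of the wide and 32.9% (31.7 to 34.2%) of the narrow TC-71 domains. Midpoints differed less there, at 18.98% (14.5 to 24.1%) of wide and 12.6% (11.8 to 13.4%) of narrow TC-32 domains, and 32.3% (24.1 to 41.2%) of wide and 28.6% (27.4 to 29.8%) of narrow TC-71 domains.

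Bases listed in a single line lay partly in line-only and partly in shared domains. TC-32 had 37.6 Mb outside every TC-71 domain, of which 24.99 Mb (66.5%) lay in TC-32-only domains and 12.6 Mb (33.5%) in parts of shared domains that reach beyond their TC-71 partner. In TC-71 14.9 Mb lay outside every TC-32 domain, 8.05 Mb (54.0%) in TC-71-only domains and 6.85 Mb (46.0%) in parts of shared ones. Line-only domains were narrow, with a median of 887 bp in TC-32 and 620 bp in TC-71, against 1705 bp and 1510 bp for the shared domains of the same lines.

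Rank agreement was read where 1 TC-32 domain met 1 TC-71 domain and neither met another, which gave 15513 pairs. Domains that stood high in TC-32 stood high in TC-71. Spearman's rho over pairs was 0.79 by −log10 q, 0.74 by fold enrichment over input and 0.56 by width. Pairs share the 2 lists they come from, so these values are descriptions and carry no p. Of the highest quartile of pairs in TC-32, 71.9% (70.4 to 73.3%) were in the highest quartile in TC-71 and 1.06% in the lowest. Of the lowest TC-32 quartile, 64.7% were in the lowest in TC-71 and 0.928% in the highest. Ranks in the middle were looser, with 48.2% of the second TC-32 quartile and 44.4% of the next one down in the same TC-71 quartile. The median difference between the lines was 10.4 rank percentiles, 84.3% of pairs were within 25, and 276 (1.78%) differed by 50 or more. Agreement was weakest over pairs whose TC-32 domain was under 500 bp, with a rho of 0.39. By TC-32 width it was 0.66 from 500 bp to 1 kb, 0.80 from 1 to 2 kb and 0.81 from 2 to 5 kb. In wider classes it was 0.62 from 5 to 10 kb and 0.67 at 10 kb and over.

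**Figure D2:**
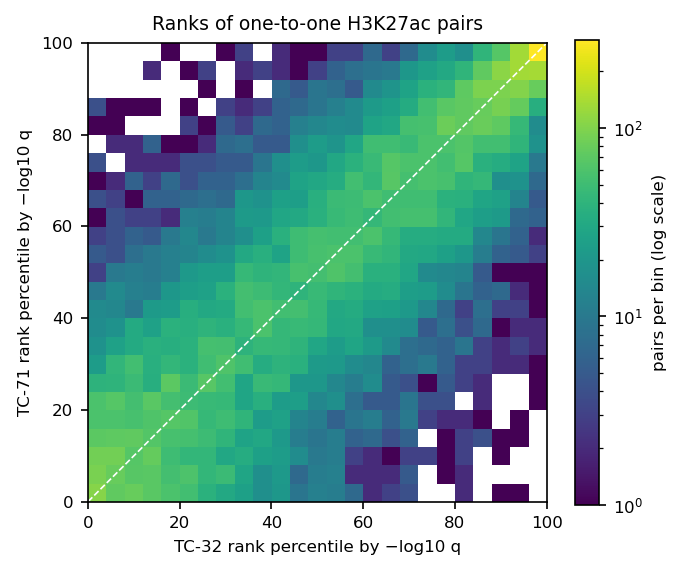
Rank percentile by −log10 q of the 15513 one-to-one pairs in TC-32 (x axis) and TC-71 (y axis), with the number of pairs per bin as colour on a log scale. Pairs gather along the dashed line of equal rank, most tightly in the upper right corner, and the upper left and lower right corners are sparse, with 276 pairs (1.78%) that differ by 50 percentiles or more.

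The pairs that broke this order were 152 with TC-32 higher by 50 percentiles or more and 124 with TC-71 higher by as much. Ranks in this paragraph are percentiles among the pairs. At 9q34.2 (chromosome 9, 137345858 to 137350725 in TC-32), the band of the retinoid X receptor gene RXRA, the TC-32 domain was at percentile 95.8 and its TC-71 partner at 3.87, with authors' fold enrichments of 8.16 and 2.89. The next was 1q32.2 (chromosome 1, 210463574 to 210469579), at percentile 91.5 in TC-32 and 1.89 in TC-71. At 1q24.2 (chromosome 1, 170630389 to 170642121), the band of the mesenchymal homeobox gene PRRX1, an 11733 bp TC-32 domain at percentile 90.5 met a 603 bp TC-71 domain at 12.9.

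Pairs that stood higher in TC-71 were led by 5q14.3 (chromosome 5, 87967562 to 87976702 in TC-71), the band of the transcription factor gene MEF2C. There a 451 bp TC-32 domain at percentile 0.696 met a 9141 bp TC-71 domain at 87.7. A pair of neighbours at 13q32.3, the band of the zinc-finger genes ZIC2 and ZIC5, was among the 10 with the largest difference. The first (chromosome 13, 100618310 to 100624547 in TC-71) was at percentile 17.5 in TC-32 and 99.7 in TC-71, with folds of 3.57 and 9.30. The second (100632106 to 100639628) had percentile 14.7 in TC-32 against 95.5 in TC-71. Also among the 10 was 14q13.1 (chromosome 14, 33407471 to 33411857), the band of the neuronal factor NPAS3, with percentile 7.63 in TC-32 against 85.6 in TC-71.

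Cohesin, the ring complex that holds chromatin loops, was measured by peaks of its subunit SMC1 and was not used to choose these pairs. Its share differed with the rank difference. Over all domains, 19.1% in TC-32 and 8.84% in TC-71 held an SMC1 peak of their own line. Where TC-32 stood higher by 50 or more, 53.3% (45.0 to 61.4%) of TC-32 domains held a TC-32 SMC1 peak and 6.58% (3.20 to 11.8%) of their TC-71 partners a TC-71 one. Among pairs within 10 percentiles those shares were 23.8% (22.9 to 24.8%) and 10.1% (9.44 to 10.8%). Where TC-71 stood higher by 50 or more they were 18.5% (12.1 to 26.5%) in TC-32 and 29.8% (21.96 to 38.71%) in TC-71. Widths differed too. The TC-32 and TC-71 medians were 3283.5 and 725 bp in the first of these groups, 1708 and 1611 bp in the second and 806 and 2538.5 bp in the last, and the part of width in the cohesin shares was not tested.

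The next comparison asked whether domains are wider in one line. Over the 15513 pairs, 56.0% (55.2 to 56.8%) were wider in TC-32 and 43.8% in TC-71, with medians of 1660 bp in TC-32 and 1513 bp in TC-71. The median log2 width ratio, TC-32 over TC-71, was 0.08 (0.07 to 0.09). A domain at least 2-fold wider was found in TC-32 in 2570 pairs (16.6%) and in TC-71 in 1259 (8.12%). The median offset between paired edges was 229 bp. Of the 31026 paired edges, 30.4% lay within 100 bp and 71.3% within 500 bp of each other. Both edges lay within 100 bp in 1631 pairs (10.5%). In 37.0% of pairs the TC-71 domain lay inside the TC-32 domain, in 25.1% the TC-32 domain lay inside the TC-71 domain, and in 37.9% they were staggered.

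The excess of wider TC-32 domains was seen in weak and middling pairs. Where the mean of the 2 rank percentiles was up to 25, 61.3% (59.7 to 62.9%) were wider in TC-32, with a median log2 ratio of 0.36. From 25 to 50 the share was 61.2% and the ratio 0.19, and from 50 to 75 they were 54.8% and 0.05. Above 75 the order was the other way round, with 46.3% (44.6 to 47.9%) wider in TC-32, 53.5% (51.9 to 55.1%) wider in TC-71 and a median ratio of -0.04. A 2-fold difference in either direction was seen in 32.9% and 16.6% of the weakest pairs (wider in TC-32 and in TC-71), and in 3.21% and 1.88% of the strongest.

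**Figure D3:**
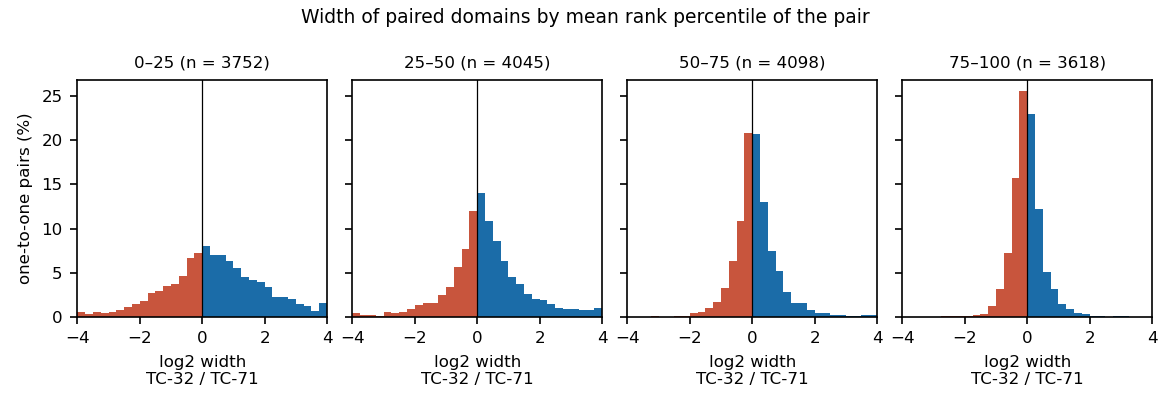
Log2 width ratio, TC-32 over TC-71, of one-to-one pairs (x axis; values beyond 4 in either direction are in the outer bins) as percent of pairs (y axis), in 4 panels by the pair's mean rank percentile. Blue bars are pairs wider in TC-32 and red bars pairs wider in TC-71; the spread narrows from left to right, and the median moves from 0.36 to -0.04.

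Single pairs in the upper rank range of at least one line differed far more in width. The widest ratio was at 9q33.3 (chromosome 9, 126071046 to 126087738 in TC-32), where a 16693 bp TC-32 domain met a 211 bp TC-71 domain, a ratio of 79.1. At 19p13.11 (chromosome 19, 18954008 to 18962735) the widths were 8728 bp in TC-32 and 190 bp in TC-71. The opposite was seen at 8q22.2 (chromosome 8, 99100672 to 99108788 in TC-71), with 208 bp in TC-32 and 8117 bp in TC-71, and at 3p24.1 (chromosome 3, 30073592 to 30078584), with 206 bp and 4993 bp. All 10 named pairs wider in TC-32 had TC-71 domains of 490 bp or less, and 9 of them had SMC1 in TC-32 and 0 in TC-71. Of the 10 wider in TC-71, 1 had SMC1 in TC-32 and 4 in TC-71. Over all pairs the shares were 25.1% in TC-32 and 10.5% in TC-71. Width differed with these counts, since SMC1 lay in 61.3% of shared TC-32 domains of 5 to 10 kb and 77.0% of those of 10 kb and over, and in 4.33% of shared TC-71 domains under 500 bp.

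The 10 widest pairs were taken by the geometric mean of both widths, a rule that leaves out pairs wide in a single line, and their widths are given as a description. At 2q35 (chromosome 2, 218866203 to 218883498 in TC-32) the TC-32 and TC-71 widths were 17296 and 17352 bp, and at 17q21.31 (chromosome 17, 44010086 to 44029954) they were 19869 and 19262 bp. The widest by this rule was at 6p22.2 (chromosome 6, 26181778 to 26212290 in TC-32), which is the band of the main histone gene cluster, with 30513 bp in TC-32 and 18960 bp in TC-71. A further pair in that band (chromosome 6, 26019768 to 26040644) measured 20877 and 15428 bp.

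Domains that are whole in one line and in pieces in the other were counted through overlap groups, the sets of domains linked by overlap. Most groups, 15513 of 16674 (93.0%), were pairs. In 777 groups 1 TC-32 domain met several TC-71 domains, and in 346 several TC-32 domains met 1 TC-71 domain, while 38 held several of both. The 777 TC-32 domains covered 6.15 Mb and their 1775 TC-71 pieces 3.34 Mb. In the reverse case 734 TC-32 pieces covered 1.44 Mb against 2.31 Mb for the 346 TC-71 domains. Breaking up was common among wide domains. A domain meets 2 domains of the other list only if it spans the gap between them, so this share grows with width by construction. Among shared domains of 10 kb and over, 56.7% (51.3 to 62.0%) in TC-32 and 42.5% (34.7 to 50.6%) in TC-71 met at least 2 domains of the other line, against 0.685% and 0.461% of those of 1 to 2 kb.

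Part of this count lies in small gaps. The gaps that broke TC-32 domains into TC-71 pieces had a median of 1045 bp and those that broke TC-71 domains into TC-32 pieces 1084 bp, and 47.6% and 41.8% of them were 1 kb or less. An alternative chosen after seeing the data joined TC-71 domains up to 772 bp apart, below the smallest gap of the TC-32 list, and gave 627 groups whole in TC-32 and 388 whole in TC-71. With domains within 1 kb joined in both lists they were 519 and 319. In lists of equal length the counts were 757 and 152, and keeping domains whose −log10 q reached 5 gave 195 and 79. Groups whole in TC-32 were the more numerous under all 4 of these settings.

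The groups with most pieces were long domains. At 7q32.3 (chromosome 7, 130577641 to 130649563), the band of LINC-PINT and of the MIR29A and MIR29B1 microRNA genes, the widest TC-32 domain met 11 TC-71 domains of 181 to 4320 bp, which covered 13.6 kb against its 71.9 kb. At 7q31.2 (chromosome 7, 116125638 to 116178314), the band of the caveolin genes and the receptor gene MET, a TC-32 domain of 52.7 kb met 11 TC-71 domains that covered 26.8 kb. The 52759 bp TC-32 domain at 17q21.32 (chromosome 17, 47056796 to 47109554), the band of the HOXB genes and of the RNA-binding protein gene IGF2BP1, met 9 TC-71 pieces that held 38491 bp. At 10q24.33 (chromosome 10, 105538998 to 105569203) 30206 bp in TC-32 met 10 TC-71 pieces of 9443 bp in sum, and at 14q32.2 (chromosome 14, 99696184 to 99741516), the band of the T-cell factor gene BCL11B, 45333 bp in TC-32 met 6 TC-71 pieces of 16371 bp in sum.

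In the opposite direction 13q13.1 (chromosome 13, 33740474 to 33783318 in TC-71) stood first. There 7 TC-32 domains covered 19.2 kb against a single 42.8 kb domain in TC-71. At 10q21.3 (chromosome 10, 64563071 to 64578837), the band of the Schwann cell factor gene EGR2, 3 TC-32 pieces held 2500 bp against 15767 bp in TC-71. The strongest of those TC-32 pieces had a −log10 q of 31.8, and the undivided TC-71 domain one of 17.8. Each value was in the highest quartile of its own list. The depth is unknown, so they do not show in which line the acetylation was stronger. At 6p22.2 (chromosome 6, 26117580 to 26176570), again in the histone gene band, 5 TC-32 and 2 TC-71 domains overlapped in a chain of 58991 bp, the longest group with several domains of both lines, and held 46483 and 57589 bp.

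**Figure D4:**
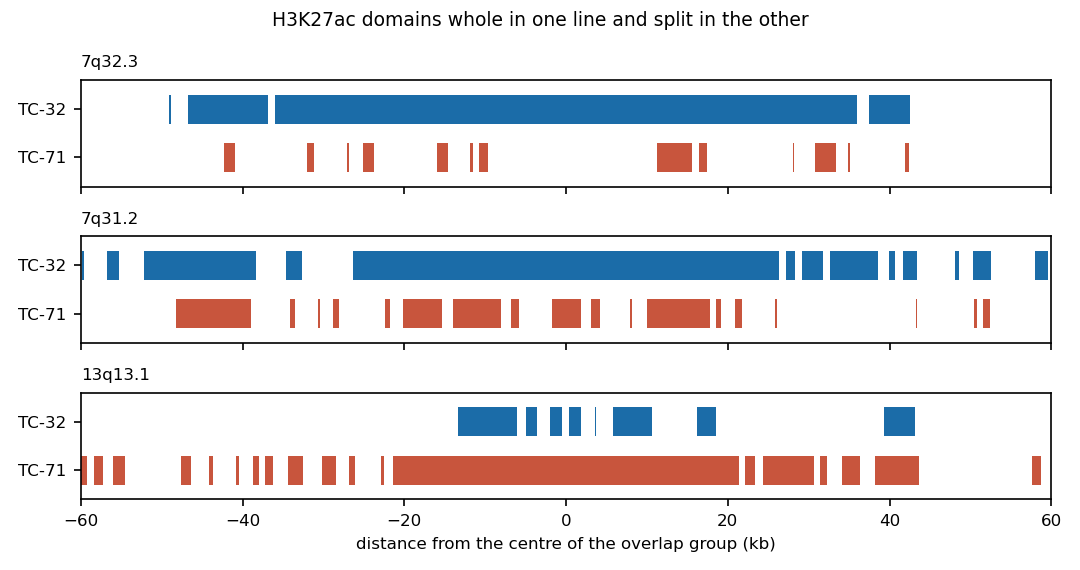
H3K27ac domains of TC-32 (upper row of each panel) and TC-71 (lower row) as bars against the distance from the centre of the overlap group (x axis, kb), at 7q32.3, 7q31.2 and 13q13.1, with neighbouring domains of each list in the window. The single TC-32 domains of 71.9 kb and 52.7 kb stand over 11 TC-71 domains each, and the single TC-71 domain of 42.8 kb stands under 7 TC-32 domains.

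The distance of line-only domains to shared ones was measured edge to edge within the list of each line. TC-32-only domains lay farther out than shared TC-32 domains lie from each other. Their median distance to the nearest shared domain was 37.6 kb (36.5 to 39.0 kb), against 21.4 kb (20.73 to 22.02 kb) between shared TC-32 domains. In TC-71 it was 20.7 kb (19.6 to 21.7 kb) for TC-71-only domains and 19.3 kb (18.9 to 19.9 kb) for shared ones. TC-71-only domains ranked low, with a median percentile of 24.998 in the list against 65.2 for shared ones, and within each rank quartile their median distance was the larger. Within 10 kb of a shared domain lay 24.2% (23.6 to 24.8%) of TC-32-only and 35.8% (34.8 to 36.8%) of TC-71-only domains, and beyond 50 kb lay 43.8% of TC-32-only and 30.6% of TC-71-only domains. Keeping domains whose −log10 q reached 5 in both lists, 14.7% of TC-32-only and 17.1% of TC-71-only domains lay within 10 kb, and the medians were 62493.5 bp in TC-32 and 50185 bp in TC-71. In the TC-32-only class 3207 domains (16.7%) were 200 kb or more from any shared domain, and in TC-71-only 728 (8.45%).

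**Figure D5:**
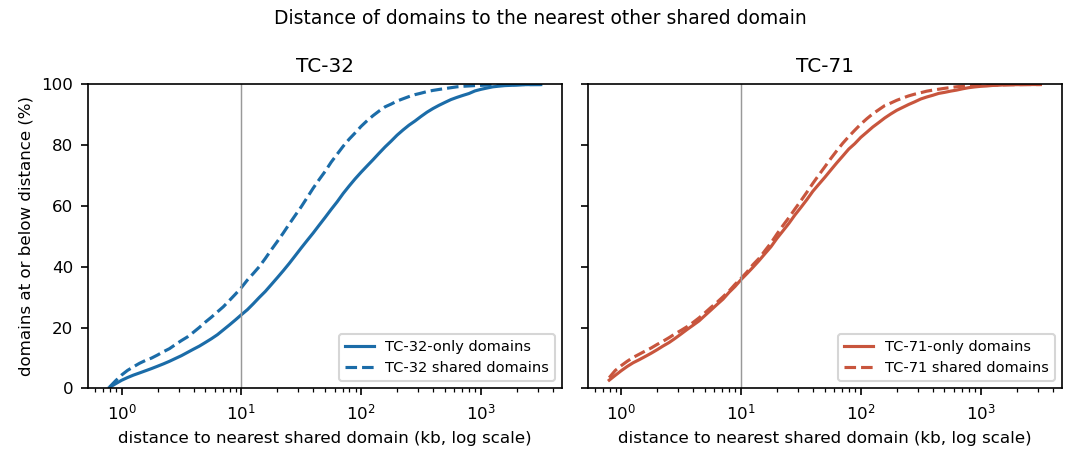
Cumulative share of domains (y axis, percent) by the distance to the nearest other shared domain of the same line (x axis, kb, log scale), for TC-32 on the left and TC-71 on the right. The grey line marks 10 kb; the solid TC-32-only curve runs below the dashed curve of shared TC-32 domains, with 24.2% and 33.1% at the mark, while the TC-71-only and shared TC-71 curves lie close, with 35.8% and 36.2%.

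Domains in the highest rank quartile lay farther from shared ones than those in the lowest, whether line-only or shared themselves. In the highest −log10 q quartile the median distance was 52.6 kb for 678 TC-32-only and 27.1 kb for shared TC-32 domains, and 44.8 kb for 130 TC-71-only and 25.6 kb for shared TC-71 domains. In the lowest quartile it was 28.1 kb for TC-32-only and 8.56 kb for shared TC-32 domains, and 16.1 kb for TC-71-only and 7.96 kb for shared TC-71 domains. In the second TC-71 quartile the medians were 43.8 kb for TC-71-only and 22.2 kb for shared domains, and in the next one down 22.1 kb and 11.9 kb. In the second TC-32 quartile they were 52.9 kb for TC-32-only and 21.0 kb for shared domains. The TC-32-only median was thus no larger in the highest quartile than in the second. The 508 TC-32-only domains under 1 kb away had a median rank percentile of 21.9 and a median width of 746 bp, and the 500 such TC-71-only domains 20.1 and 555 bp. At 200 kb or more the median percentiles were 37.1 in TC-32 and 34.0 in TC-71, with widths of 980 and 749 bp. Measured to the nearest domain of the other line, 2.57% of TC-32-only and 6.40% of TC-71-only domains were within 1 kb.

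Over 50 kb from any domain of the other line stood 7646 TC-32-only and 1974 TC-71-only domains, and the 10 of highest −log10 q in each line were named, of which the leading ones are described. Ranks here are percentiles within the whole list of a line. Besides a pair of domains at 12q24.21, the band of the T-box genes TBX3 and TBX5, the highest-ranked in TC-32 included Xp11.22 (chromosome X, 53252869 to 53255132, fold 8.66), 129 kb from the nearest TC-71 domain, and 3q24 (chromosome 3, 147109721 to 147114260, fold 9.34), the band of ZIC1 and ZIC4, 847 kb away. The 13q34 domain (chromosome 13, 112720371 to 112728806, fold 10.6) lay 513 kb from the nearest listed TC-71 domain, in the band of the neural progenitor factor gene SOX1. At 18q22.3 (chromosome 18, 70531249 to 70538481, fold 9.06) that distance was 1156 kb, and at 1q32.3 (chromosome 1, 214149107 to 214164854, fold 6.08), the band of the homeobox gene PROX1, it was 289 kb. Of these 10 TC-32 domains, 7 held a TC-32 SMC1 peak and 0 a TC-71 one, where 44.4% of all TC-32-only domains of the highest rank quartile held a TC-32 peak. A TC-71 SMC1 peak lay in 2.30% of all TC-32-only domains.

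These TC-32 domains ranked between percentiles 96.6 and 99.2 in their list, and the TC-71 domains named by the same rule between 89.2 and 94.1 in theirs. The TC-71 domains were led by 16q12.1 (chromosome 16, 47176717 to 47178334, fold 8.54), 105 kb from the nearest TC-32 domain. Next came 1p21.3 (chromosome 1, 95200129 to 95203446, fold 6.14), 188 kb away, and the 355 bp domain at 7q22.1 (chromosome 7, 102311821 to 102312175, fold 8.99). A pair at 12q14.3 (chromosome 12, 66216268 to 66222021 and 66134334 to 66136075, folds 6.92 and 6.87), the band of the oncofetal chromatin gene HMGA2, lay 215 kb and 133 kb from the nearest listed TC-32 domain. At 1p32.2 (chromosome 1, 57886602 to 57890927, fold 7.202) the nearest TC-32 domain was 1120 kb away. Of the 10 TC-71 domains, 1 held a TC-32 SMC1 peak and 2 a TC-71 one, where 24.6% of all TC-71-only domains of the highest rank quartile held a TC-71 peak. A TC-32 SMC1 peak lay in 6.36% of all TC-71-only domains.

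Some of the widest line-only domains lay close to shared ones. In TC-32 the 24470 bp domain at 1q41 (chromosome 1, 218544031 to 218568500), the band of the growth factor gene TGFB2, lay 2.69 kb from a shared TC-32 domain and 7.14 kb from a TC-71 domain. The 22832 bp domain at 9q33.3 (chromosome 9, 126091017 to 126113848) began 3.28 kb from the TC-32 domain of the 79.1-fold pair described above. In TC-71 the widest was 17810 bp at 12q21.2 (chromosome 12, 79274736 to 79292545), 7.54 kb from a shared TC-71 domain. The 11011 bp domain at 10p12.1 (chromosome 10, 26026822 to 26037832) was 713 kb from any TC-32 domain, and the 9648 bp domain at 3q26.33 (chromosome 3, 181427118 to 181436765), the band of the pluripotency factor gene SOX2, 191 kb. SMC1 of the same line lay in 9 of the 10 named in TC-32 and 3 of the 10 in TC-71. Over all line-only domains of 10 kb and over it lay in 69.1% (55.2 to 80.9%) of 55 in TC-32 and in 1 of 8 in TC-71. The named domains are part of these sets, and all 8 in TC-71 are among the 10 named. From 5 to 10 kb it lay in 30.3% (21.5 to 40.4%) of 99 TC-71-only domains.

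Line-only domains also lay in runs, defined as consecutive line-only domains of a list with no shared domain between them and neighbours at most 100 kb apart. Runs of 5 or more numbered 796 in TC-32 and 230 in TC-71 and held 30.2% and 18.9% of line-only domains. Of the TC-32 runs, 687 (86.3%) had no TC-71 domain anywhere in their span, and of the TC-71 runs 182 (79.1%) had no TC-32 domain. By the definition only a domain that is itself line-only in the other list could lie there. These shares therefore do not show independently that the other line is empty in a run. The order of the run counts turned round in lists of equal length, with 298 runs in TC-32 and 332 in TC-71. Those lists keep the TC-32 domains of highest −log10 p and the whole TC-71 list. They differ from the full lists in strength as well as length, and the part of each was not tested. With domains whose −log10 q reached 5 there were 222 runs in TC-32 and 14 in TC-71.

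The longest TC-32 run was at 21q22.13 (chromosome 21, 37870862 to 38305425), the band of the neural bHLH gene SIM2, with 29 domains over 435 kb. At 9q22.1 (chromosome 9, 91145727 to 91625751) 26 domains spanned 480 kb, 11 of them with a TC-32 SMC1 peak and 4 with a TC-71 one. Those SMC1 counts were the highest among the 10 runs named in TC-32. Over all TC-32-only domains the shares were 12.6% for a TC-32 peak and 2.30% for a TC-71 one. At 15q13.3 (chromosome 15, 32919661 to 33249567), where the BMP antagonist gene GREM1 lies, 24 domains spanned 330 kb. Except at 3q12.1, which held 1 TC-71 domain, the 10 runs named in TC-32 had 0 TC-71 domains in them, where only TC-71-only domains could lie.

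In TC-71 the longest run was at 3p12.3 (chromosome 3, 77095744 to 77291778), the band of the axon guidance receptor genes ROBO1 and ROBO2, where 25 TC-71-only domains spanned 196 kb with 1 TC-32 domain among them. At 4p15.31 (chromosome 4, 20252830 to 20434194), the band of the ligand gene SLIT2, 24 domains spanned 181 kb with 0 TC-32 domains. Both runs had 0 domains with a TC-71 SMC1 peak, where 5.09% of all TC-71-only domains held one. Chromosome 8 held 5 of the 10, with 3 at 8q23.3, the band of CSMD3, 1 at 8p12 (chromosome 8, 32417284 to 32601816, 20 domains over 185 kb), the band of the neuregulin gene NRG1, and 1 at 8q24.21. Domains within runs were mostly of modest rank, with medians per run between percentiles 18.1 and 45.7 for the 10 in TC-32 and 16.8 and 41.2 for those in TC-71.

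Along the genome TC-32 had more domains on each of the 23 chromosomes, and the TC-71 share was above the TC-32 share on each. The ratio of list lengths, TC-32 over TC-71, was lowest on chromosome 8, at 1.15 (1722 TC-32 and 1493 TC-71 domains), and highest on chromosome 18, at 1.71 (771 TC-32 and 452 TC-71 domains). Sharing was highest on the gene-dense chromosome 19, with 68.1% (65.6 to 70.5%) of TC-32 and 85.7% (83.5 to 87.6%) of TC-71 domains. It was lowest for TC-32 on chromosome 18, at 37.9% (34.4 to 41.4%), and for TC-71 on chromosome 13, at 53.8% (50.3 to 57.3%), with chromosome 8 next at 54.7% (52.2 to 57.3%). Chromosome 8 also carried 30 runs of 5 or more with 244 TC-32-only domains and 26 with 250 TC-71-only domains, while chromosome 19 carried 12 TC-32 runs and 0 TC-71 runs. Copy number was not analysed here.

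Cohesin was set beside sharing last. Of all domains, 6936 in TC-32 (19.1%) and 2327 in TC-71 (8.84%) held an SMC1 peak of their own line, and 6.69% of TC-32 and 18.4% of TC-71 domains held one of the other line. Over the whole lists SMC1 was less frequent at line-only domains. In TC-32 12.6% (12.2 to 13.1%) of line-only and 26.3% (25.66 to 26.98%) of shared domains held an SMC1 peak of the line, and in TC-71 5.09% (4.63 to 5.57%) of line-only and 10.7% (10.2 to 11.1%) of shared domains.

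That difference varied with width and turned round among the strongest domains. Under 500 bp SMC1 lay in 4% (3.50 to 4.55%) of TC-32-only and 11.2% (9.59 to 13.1%) of shared TC-32 domains. From 2 to 5 kb the shares were 27.5% (25.9 to 29.2%) of TC-32-only and 32.1% (30.9 to 33.4%) of shared TC-32 domains, and 14.2% (11.8 to 17.0%) of TC-71-only and 14.3% (13.4 to 15.3%) of shared TC-71 domains. From 5 to 10 kb they were 44.9% (40.1 to 49.8%) of TC-32-only and 61.3% (58.3 to 64.2%) of shared TC-32 domains. In the highest rank quartile line-only domains held SMC1 more often. There it lay in 44.4% (40.6 to 48.2%) of 678 TC-32-only and 30.7% (29.8 to 31.7%) of shared TC-32 domains, and in 24.6% (17.5 to 32.9%) of 130 TC-71-only and 14.1% (13.2 to 14.9%) of shared TC-71 domains. Median widths in that quartile were 2993 bp for TC-32-only and 2032 bp for shared TC-32 domains, and 2480 bp for TC-71-only and 2133 bp for shared TC-71 domains, and the part of width was not tested. Keeping domains whose −log10 q reached 5 in both lists, SMC1 lay in 24.9% of line-only and 29.3% of shared TC-32 domains and in 13.2% of line-only and 12.6% of shared TC-71 domains.

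Where a TC-32-only domain held a TC-32 SMC1 peak, the same domain held a TC-71 SMC1 peak in 429 of 2434 cases (17.6%, 16.1 to 19.2%), against 1839 of 4502 (40.8%, 39.4 to 42.3%) for shared TC-32 domains. In wide TC-32-only domains of 2 to 5 kb it was 9.41% (7.51 to 11.6%), against 35.7% (33.5 to 38.1%) for shared ones of that width. For TC-71-only domains with a TC-71 peak the share with a TC-32 peak was 79.5% (75.4 to 83.1%), and for shared TC-71 domains 91.6% (90.2 to 92.8%). These shares depend on the number of SMC1 peaks listed, 32720 in TC-32 and 18264 in TC-71.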

How the data were processed

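The labels and the submitters' processing notes give chromatin immunoprecipitation followed by sequencing, aligned to hg19, and name MACS2 2.1.1, deepTools 2.2.4, Picard, SAMtools 1.3.1 and STAR 2.5.1b without roles or settings. Each deposited list holds peaks called against input of the same line, per the labels and the deposited peak names, as 1 list for both samples of a group. The authors' columns are a peak score, a fold enrichment ratio over input, −log10 p and −log10 q. No counts were used, so the depth is unknown and no replicate error could be computed. Of the 6 lists, 4 were used (H3K27ac and SMC1) and the BORIS lists were not, and 2 TC-32 and 26 TC-71 intervals outside chromosomes 1 to 22 and X were left out.

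From these, overlaps of at least 1 bp, overlap groups, one-to-one pairs, widths, edge-to-edge distances and runs (neighbours at most 100 kb apart) were computed with Python 3.11.15, pandas 2.3.3 and scipy 1.17.1. Overlap calls differed from bedtools 2.31.1 in 0 domains, and 8 quantities checked on simulated data gave 0 wrong values. Bands are the hg19 bands of circlize 0.4.16. Intervals of shares are exact (Clopper-Pearson), those of medians are order-statistic intervals, both at 95%, and both cover counting error only. Regions were named by rule, as the 10 of each kind that lead by width, −log10 q, run length, number of pieces, width ratio or rank difference, of which some are described. One named region is not reported here. Pairs named for width ratio or rank difference were among the upper 50% by −log10 q in at least one line. The members, lists and rules were chosen with earlier results of these data known. Alternatives were a stricter −log10 q, equal list lengths, other overlap rules, other ranked values and merged gaps.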

Additional observations from a re-analysis of the deposited data

How the results depend on the processing

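Of 92 alternative values, 26 stayed within the counting interval (or within 1.5 times for counts and 0.05 for rho) and 66 moved. The 26 include the values from merging domains within 500 bp, which could change nothing because no gap in either list was that small. The order of TC-32 and TC-71 changed for runs in lists of equal length, and the order of line-only and shared TC-71 domains with SMC1 changed under the stricter −log10 q. With a −log10 q of at least 5 in both lists, 56.3% of TC-32 and 82.6% of TC-71 domains were shared. Under 1 kb these were 37.3% and 68.2%, and at 5 kb and over 61.6% and 84.0%. Under that setting 67.0% of the highest TC-32 quartile was in the highest TC-71 quartile, and 53.8% of pairs were wider in TC-32. Groups whole in TC-32 numbered 195 and whole in TC-71 79, line-only domains within 10 kb made 14.7% in TC-32 and 17.1% in TC-71, and runs numbered 222 and 14. SMC1 lay in 24.9% of line-only and 29.3% of shared TC-32 domains, and in 13.2% of line-only and 12.6% of shared TC-71 domains.

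With lists of equal length, 58.3% of TC-32 and 61.4% of TC-71 domains were shared, 38.2% and 39.8% under 1 kb, and 85.7% of TC-71 domains of 5 kb and over. Pairs wider in TC-32 made 57.0%, groups whole in TC-71 numbered 152, domains within 10 kb made 18.8% in TC-32 and 32.3% in TC-71, and TC-32 runs numbered 298, below the 332 of TC-71. SMC1 lay in 18.4% of line-only and 28.2% of shared TC-32 domains. With the stricter −log10 q applied only to the list asked about, 66.5% of TC-32 and 88.5% of TC-71 domains were shared.

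With 50% of a domain covered, 37.7% of TC-32 and 60.2% of TC-71 domains were shared, 22.1% and 42.7% under 1 kb and 42.1% and 70.8% at 5 kb and over, and 17.6% of TC-32-only and 29.1% of TC-71-only domains were within 10 kb of a shared one. With midpoints the shares were 40.5% and 62.1%, 22.97% and 43.3% under 1 kb, and 49.8% and 74.4% at 5 kb and over. Ranked by fold, 65.7% of the highest TC-32 quartile was in the highest TC-71 quartile, and ranked by width 59.2%. Merging domains within 1 kb gave 48.2% of TC-32 and 69.1% of TC-71 domains shared, and 48.3% of TC-71 domains under 1 kb. Merging TC-71 domains up to the smallest TC-32 gap, an alternative added after seeing the data, gave 68.0% in TC-71. Measured to the nearest domain of the other line, 26.4% of TC-32-only and 41.5% of TC-71-only domains were within 10 kb. The cause of these shifts was not tested.

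No paired analysis was possible because each line has a single list for both samples and no result comes from a test. The depth is unknown, signal below the authors' threshold was not analysed here, and no line-only domain is shown to lack acetylation in the other line.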
